A study of Homo sapiens with 8 samples.

Results

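Aminoacyl tRNA synthetases attach each amino acid to its own transfer RNA, and 36 of their genes were followed by symbol through a table of 19035 gene symbols. All 36 were present and had a mean of at least 1 TPM (transcripts per 1000000 transcripts, an abundance corrected for transcript length), so all were among the 11885 genes tested. By symbol, 20 encode cytosolic enzymes and 16, whose symbols end in 2, encode mitochondrial ones. The cells were KPL-1, a human breast cancer line with Cas9 under doxycycline control (iCas9). Cells labelled SETD1A knockout carried the guide RNA sgSETD1A, named for SETD1A, a methyltransferase gene of histone H3 lysine 4, and cells labelled wild type carried sgEmpty. RNA of both was taken on day 7 of doxycycline, in 3 libraries each, and the series' title sets SETD1A in the context of breast cancer cell proliferation and cyclin K. Both groups carried iCas9 and had doxycycline, an antibiotic known to act on bacterial and mitochondrial ribosomes. The labels do not say whether the cells were a pool or a clone, or whether replicates were separate cultures, so the p-values cover only how these libraries varied, possibly a technical spread.

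Human cells keep separate sets of synthetases for the cytosol and for the mitochondrion, all encoded in the nucleus. Most amino acids have a gene for each compartment, while GARS (glycine) and KARS (lysine) each give rise to both forms and were counted as cytosolic by their symbols. Several cytosolic enzymes sit in the multisynthetase complex, held together by the scaffold proteins AIMP1, AIMP2 and EEF1E1. Many cytosolic synthetase genes are known targets of ATF4, the transcription factor of the amino acid response.

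SETD1A itself had 9.36, 11.3 and 10.7 TPM in the sgSETD1A libraries, against 17.5, 17.5 and 18.1 TPM in the sgEmpty libraries. Every sgSETD1A library was below every sgEmpty library, with a change of -0.71 ± 0.071 (SE) log2 (limma adjusted p = 9.13e-05). The depth of the libraries is unknown, since TPM keeps none. Correlations of log2(TPM + 1) across tested genes were 0.995 to 0.998 within sgSETD1A, 0.997 within sgEmpty and 0.988 to 0.990 between groups. Over all tested genes, 3459 were called higher without sgSETD1A replicate 1, against 2548 without its replicate 2 and 2435 without its replicate 3. All 9 luminal breast markers were tested, of which 6 were called higher and 1 lower (all tested genes, 28.0% higher and 13.5% lower). Their sum was 22101 to 22830 TPM in sgSETD1A libraries and 21327 to 22755 TPM in sgEmpty libraries. The sum of 6 immune markers was at most 2.33 TPM and that of 9 fibroblast and endothelial markers at most 5.08 TPM in any library, and DCN, a fibroblast marker, was listed at 0 throughout. In a bulk library, fewer cells of a kind and less RNA per cell cannot be told apart.

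More synthetase genes fell in sgSETD1A cells than rose. Of the 20 cytosolic genes 8 fell and none rose, and of the 16 mitochondrial genes 7 fell and 2 rose (limma on log2(TPM + 1), Benjamini-Hochberg adjusted p under 0.05 over all genes tested). Thus 41.7% of the 36 were lower, whereas among all tested genes 13.5% were lower, 28.0% higher and 41.5% called in either direction. The median change was -0.064 log2 for the cytosolic genes and -0.14 log2 for the mitochondrial genes, against 0.073 log2 for all tested genes. In 23 of the 36 all sgSETD1A libraries were below all sgEmpty libraries (background 17.3%), and in 2 all were above (background 36.4%). The changes were small: the lowest was that of DARS, -0.53, and the highest that of AARS2, 0.36 log2.

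The counts moved with scaling. After median-ratio rescaling of the TPM values 15 cytosolic genes were lower and 0 higher, and 9 mitochondrial genes were lower and 1 higher; after quantile normalization these were 12 and 0, and 9 and 1. The background moved too, to 19.6% lower and 14.9% higher with median-ratio rescaling and 17.3% lower and 18.0% higher with quantile normalization. Without sgSETD1A replicate 1, 8 cytosolic genes were lower and 1, HARS, was higher, and 6 mitochondrial genes were lower and 1 higher. Without sgEmpty replicate 1, HARS was again called higher. Of the 17 genes called, 14 kept their call in each of the 14 alternatives tried, and the exceptions were MARS, HARS2 and RARS2.

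**Figure D1:**
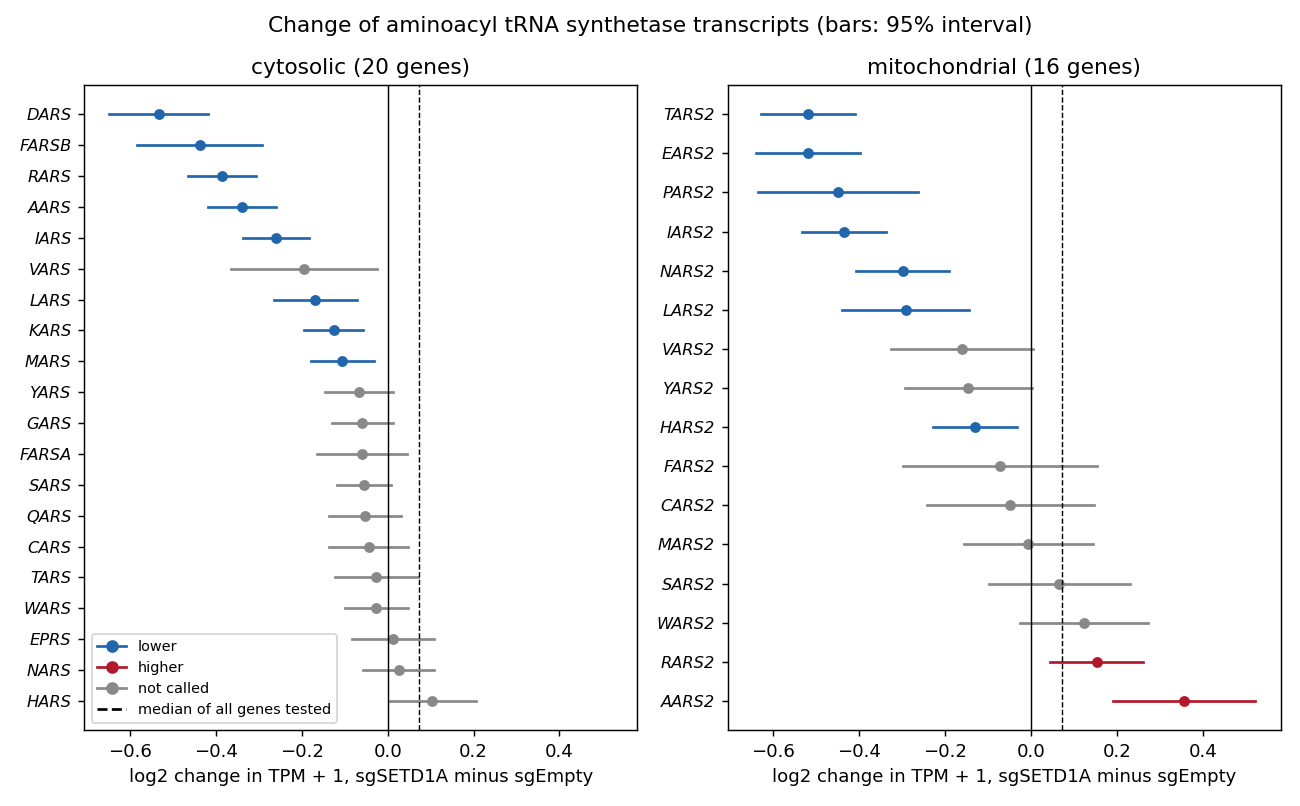
Each point is the change of a synthetase transcript on the log2(TPM + 1) scale (x axis, sgSETD1A minus sgEmpty) with its 95% interval, for 20 cytosolic genes on the left and 16 mitochondrial genes on the right. Most points lie left of the dashed line, the median of all tested genes at 0.073, and AARS2 and RARS2 are the only genes called higher.

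In total abundance both classes were lower in sgSETD1A cells. Summed TPM of the 20 cytosolic genes was 2198, 2181 and 2183 in the sgSETD1A libraries, against 2409, 2376 and 2385 in the sgEmpty libraries, or 91.5% of the sgEmpty mean. The 16 mitochondrial genes summed to 387, 387 and 379 TPM in the sgSETD1A libraries, against 459, 452 and 452 TPM in the sgEmpty libraries, or 84.6%. Neither sum overlapped between groups, and no background for such sums was computed. The mitochondrial sum leans on IARS2, which alone averaged 113 TPM in sgSETD1A cells and 153 TPM in sgEmpty cells. Mean levels over all 6 libraries ran from 33.9 TPM (VARS) to 338 TPM (SARS) in the cytosolic class, and from 6.60 TPM (AARS2) to 133 TPM (IARS2) in the mitochondrial class. Across the 36 genes Spearman's rho was -0.0031 between level and change and -0.14 between the change and the length of the gene's span in RefSeq, both descriptions over genes of the same libraries.

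Among cytosolic enzymes the aspartate enzyme changed most. DARS had 62.5, 55.7 and 55.5 TPM in the sgSETD1A libraries, against 82.4, 85.1 and 85.0 TPM in the sgEmpty libraries. The lowest sgEmpty library was far above the highest sgSETD1A library, and the change was -0.53 ± 0.051 (SE) log2 (limma adjusted p = 7.91e-05). FARSB, the beta subunit of the phenylalanine enzyme, had 35.2, 31.1 and 29.1 TPM in the sgSETD1A libraries, against 43.7, 43.1 and 43.3 TPM in the sgEmpty libraries, a change of -0.44 ± 0.065 (SE) log2 (limma adjusted p = 0.000824). FARSA, the catalytic alpha subunit of the same enzyme, overlapped between groups, with 95.5, 105 and 100.3 TPM in the sgSETD1A libraries, against 109, 102 and 103 TPM in the sgEmpty libraries, and was not called (limma adjusted p = 0.331). The ratio of FARSB to FARSA was 0.369, 0.295 and 0.290 in sgSETD1A libraries, against 0.400, 0.423 and 0.421 in sgEmpty libraries. These ratios did not overlap, and the exact two-sided permutation p was 0.1, the smallest that 3 against 3 libraries can give.

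RARS, the arginine enzyme, had 87.3, 87.2 and 85.8 TPM in the sgSETD1A libraries, against 116, 112 and 113 TPM in the sgEmpty libraries. No library of one group reached the other, and the change was -0.39 ± 0.035 (SE) log2 (limma adjusted p = 5.92e-05). AARS, which charges alanine, had 204, 208 and 199 TPM in the sgSETD1A libraries, against 266, 259 and 249.8 TPM in the sgEmpty libraries, a change of -0.34 ± 0.035 (SE) log2 (limma adjusted p = 0.00012). IARS, for isoleucine, had 87.7, 86.5 and 87.1 TPM in the sgSETD1A libraries, against 104, 103 and 106 TPM in the sgEmpty libraries. Replicates were close within each group, and the change was -0.26 ± 0.034 (SE) log2 (limma adjusted p = 0.000432). The other falls were smaller. LARS, the leucine enzyme and a leucine sensor of the growth pathway, had 42.9, 40.8 and 43.3 TPM in the sgSETD1A libraries, against 46.9, 48.2 and 48.1 TPM in the sgEmpty libraries, a change of -0.17 log2 (limma adjusted p = 0.0121). KARS, the lysine enzyme of both compartments, had 209, 203 and 205 TPM in the sgSETD1A libraries, against 226, 221 and 227 TPM in the sgEmpty libraries, a change of -0.13 log2 (limma adjusted p = 0.0103). MARS, for methionine, changed by -0.11 log2 (limma adjusted p = 0.0294). Its call was lost when any one library other than sgSETD1A replicate 1 was left out (adjusted p up to 0.0891), without the variance trend and with a replicate term. The MARS span overlaps that of DDIT3 in RefSeq, and DDIT3 was higher in sgSETD1A cells, by 0.36 log2.

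**Figure D2:**
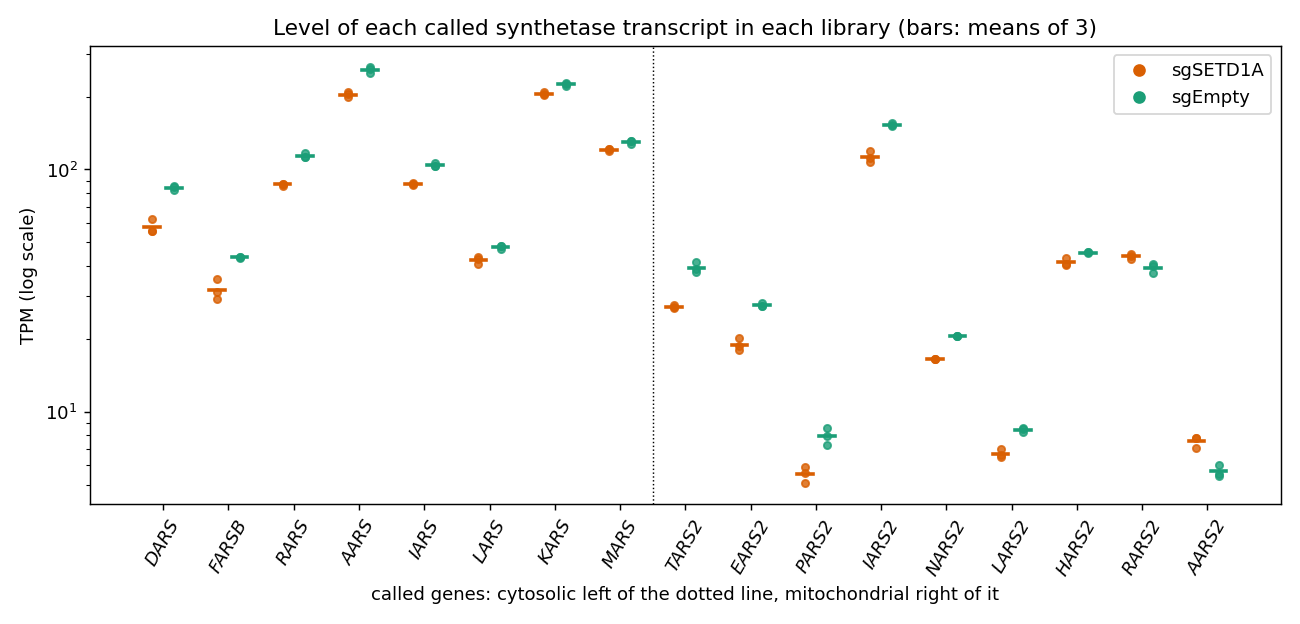
TPM of the 17 called synthetase genes in each library on a log axis, sgSETD1A left of sgEmpty for each gene, with cytosolic genes left of the dotted line and mitochondrial genes right of it; points are libraries and bars are means of 3. The groups do not overlap in any of the 17, and the gap is widest for DARS, TARS2 and EARS2.

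Of the 8 enzymes of the multisynthetase complex (for arginine, aspartate, glutamate with proline, glutamine, isoleucine, leucine, lysine and methionine), 6 fell and none rose, against 13.5% lower and 28.0% higher among all tested genes. Of the 12 other cytosolic genes, 2 fell (AARS and FARSB), a share near that background, and none rose. Their medians were -0.15 and -0.057 log2, against 0.073 for all tested genes; this grouping was set with the values known, and the difference between both sets was not tested. The complex members not called were EPRS and QARS. EPRS, the bifunctional enzyme for glutamate and proline, had 141, 127 and 132 TPM in the sgSETD1A libraries, against 133, 132 and 130.3 TPM in the sgEmpty libraries, with overlapping groups and a 95% interval of -0.083 to 0.11 log2 for its change. QARS, the glutamine enzyme, also overlapped, with 124, 129 and 132 TPM in the sgSETD1A libraries, against 136, 132 and 131 TPM in the sgEmpty libraries and an interval of -0.14 to 0.031 log2. Of the scaffold proteins, AIMP2 had 42.8, 43.9 and 40.3 TPM in the sgSETD1A libraries, against 60.3, 59.9 and 59.2 TPM in the sgEmpty libraries, a change of -0.49 ± 0.045 (SE) log2 (limma adjusted p = 6.13e-05). AIMP1 changed by -0.16 log2 (limma adjusted p = 0.0337) and EEF1E1 by 0.17 log2 (limma adjusted p = 0.0175), and neither call held in every alternative. EEF1E1 was not called after either rescaling (adjusted p = 0.169 with median-ratio rescaling).

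The remaining 10 cytosolic genes outside the complex were not called. SARS, which charges serine and also the selenocysteine tRNA, was the most abundant synthetase transcript, with 332, 329 and 334 TPM in the sgSETD1A libraries, against 339, 347 and 347 TPM in the sgEmpty libraries. Its groups did not overlap, yet its change of -0.055 log2 had a limma adjusted p = 0.143. GARS (glycine) had 138, 138 and 135 TPM in the sgSETD1A libraries, against 142, 144 and 143 TPM in the sgEmpty libraries, a change of -0.06 log2 with limma adjusted p = 0.157. YARS (tyrosine) averaged 74.3 TPM in sgSETD1A cells and 77.9 TPM in sgEmpty cells, with a change of -0.068 log2. VARS (valine) averaged 31.6 TPM in sgSETD1A cells and 36.3 TPM in sgEmpty cells, a change of -0.20 log2 (limma adjusted p = 0.0639), and CARS (cysteine) 40.4 TPM in sgSETD1A cells and 41.7 TPM in sgEmpty cells. GARS, SARS, VARS and YARS were called lower after either rescaling, and FARSA, QARS and WARS after median-ratio rescaling alone. TARS (threonine) had 83.5, 78.0 and 76.0 TPM in the sgSETD1A libraries, against 80.1, 80.9 and 80.9 TPM in the sgEmpty libraries, and NARS (asparagine) had 97.2, 96.1 and 99.0 TPM in the sgSETD1A libraries, against 98.3, 93.3 and 95.7 TPM in the sgEmpty libraries. Both overlapped between groups, with changes of -0.027 log2 for TARS and 0.025 log2 for NARS. HARS, for histidine, had 77.1, 80.9 and 81.2 TPM in the sgSETD1A libraries, against 77.8, 71.1 and 73.5 TPM in the sgEmpty libraries, the highest change of the class at 0.10 log2 (limma adjusted p = 0.0899).

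WARS, the tryptophan enzyme, is known as a gene induced by interferon in many cell types. It had 119, 117 and 119 TPM in the sgSETD1A libraries, against 120.2, 119 and 122 TPM in the sgEmpty libraries, a change of -0.027 log2 with a 95% interval of -0.10 to 0.047 (limma adjusted p = 0.535). The sgSETD1A libraries lay just below the sgEmpty libraries. In the same libraries 5 of 6 tested interferon genes rose and none fell, against 28.0% higher and 13.5% lower among all tested genes. IFIT1, a standard interferon target, averaged 17.1 ± 0.531 TPM in sgSETD1A cells and 2.91 ± 0.689 TPM in sgEmpty cells (SD, n = 3 each). IRF1, a factor known to act on interferon-gamma targets, rose by 0.29 log2 (limma adjusted p = 0.00678), while GBP2 was not called at 0.12 log2 (limma adjusted p = 0.304). GBP1, a strong interferon-gamma target, was listed at 0 in every library.

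Among the mitochondrial enzymes, those for threonine and glutamate changed most. TARS2 had 27.0, 27.5 and 26.9 TPM in the sgSETD1A libraries, against 41.4, 37.9 and 38.8 TPM in the sgEmpty libraries. Its 3 sgSETD1A libraries lay close together and well below the sgEmpty libraries, and the change was -0.52 ± 0.049 (SE) log2 (limma adjusted p = 6.89e-05). EARS2, which loads glutamate, had 18.0, 20.1 and 18.7 TPM in the sgSETD1A libraries, against 27.3, 27.3 and 28.1 TPM in the sgEmpty libraries, a change of -0.52 ± 0.054 (SE) log2 (limma adjusted p = 0.000121). Its span overlaps that of GGA2 in RefSeq, and GGA2 was not called (30.3 TPM in sgSETD1A cells and 31.8 TPM in sgEmpty cells; limma adjusted p = 0.232). PARS2, for proline, was a low transcript with 5.06, 5.60 and 5.91 TPM in the sgSETD1A libraries, against 8.55, 7.93 and 7.25 TPM in the sgEmpty libraries. All 3 sgSETD1A values were still below all sgEmpty values, with a change of -0.45 ± 0.083 (SE) log2 (limma adjusted p = 0.00258).

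IARS2, the most abundant mitochondrial synthetase transcript, had 119.7, 112 and 107 TPM in the sgSETD1A libraries, against 155, 153 and 151 TPM in the sgEmpty libraries, a change of -0.44 ± 0.044 (SE) log2 (limma adjusted p = 9.85e-05). NARS2, for asparagine, had 16.4, 16.4 and 16.5 TPM in the sgSETD1A libraries, against 20.6, 20.4 and 20.5 TPM in the sgEmpty libraries, with replicates close together in both groups. Its change was -0.30 ± 0.048 (SE) log2 (limma adjusted p = 0.00129). LARS2, the mitochondrial leucine enzyme, had 6.47, 6.63 and 7.02 TPM in the sgSETD1A libraries, against 8.50, 8.59 and 8.22 TPM in the sgEmpty libraries, a change of -0.29 ± 0.066 (SE) log2 (limma adjusted p = 0.00694). HARS2, for histidine, averaged 41.4 ± 1.55 TPM in sgSETD1A cells and 45.4 ± 0.231 TPM in sgEmpty cells (SD, n = 3 each), a change of -0.13 log2 (limma adjusted p = 0.0383). The HARS2 call was lost when any library other than sgSETD1A replicate 2 was left out (adjusted p up to 0.131), without the variance trend and with a replicate term.

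The mitochondrial alanine and arginine enzymes rose. AARS2 had 7.07, 7.76 and 7.78 TPM in the sgSETD1A libraries, against 5.53, 5.44 and 6.03 TPM in the sgEmpty libraries. Every sgSETD1A library was above every sgEmpty library, with a change of 0.36 ± 0.074 (SE) log2 (limma adjusted p = 0.00454), and the call held in all alternatives. RARS2 had 44.8, 42.5 and 44.1 TPM in the sgSETD1A libraries, against 40.8, 37.3 and 39.8 TPM in the sgEmpty libraries, a change of 0.15 ± 0.049 (SE) log2 (limma adjusted p = 0.031); this call was lost after either rescaling (adjusted p = 0.261 with median-ratio rescaling and 0.0809 with quantile normalization) and without sgSETD1A replicate 1 or 3 or sgEmpty replicate 2 or 3 (adjusted p up to 0.126). The other 7 mitochondrial genes were not called. VARS2 and YARS2 lay below in every sgSETD1A library, with changes of -0.16 and -0.15 log2, and both were called lower after either rescaling. CARS2, FARS2, MARS2, SARS2 and WARS2 overlapped between groups, with changes of -0.048, -0.071, -0.006, 0.066 and 0.12 log2 in that order. FARS2, the mitochondrial phenylalanine enzyme, had 7.68, 7.46 and 8.42 TPM in the sgSETD1A libraries, against 9.17, 8.95 and 6.93 TPM in the sgEmpty libraries. The spans of CARS2 and FARS2 overlap those of ING1 and LYRM4, and that of YARS overlaps S100PBP.

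Mitochondria have no glutaminyl-tRNA synthetase of their own. EARS2 first loads glutamate onto the glutamine tRNA, and an amidotransferase made of QRSL1, PET112 (now GATB) and GATC then turns it into glutamine. PET112 had 4.86, 4.71 and 5.53 TPM in the sgSETD1A libraries, against 13.2, 12.7 and 14.2 TPM in the sgEmpty libraries, which left sgSETD1A cells at 37.7% of the sgEmpty mean, a change of -1.25 ± 0.077 (SE) log2 (limma adjusted p = 7.69e-06). QRSL1, the catalytic subunit, had 7.05, 6.51 and 7.12 TPM in the sgSETD1A libraries, against 8.68, 8.99 and 8.17 TPM in the sgEmpty libraries, a change of -0.28 ± 0.07 (SE) log2 (limma adjusted p = 0.0102). GATC, the small subunit, had 22.6, 21.1 and 20.1 TPM in the sgSETD1A libraries, against 19.1, 20.0 and 18.8 TPM in the sgEmpty libraries; it lay higher in every sgSETD1A library, at 0.13 log2, but was not called (limma adjusted p = 0.0933). Of the route's 4 genes, EARS2, QRSL1 and PET112 were thus lower in each alternative tried. MTFMT, which formylates the initiator methionyl-tRNA of mitochondria, had a change of 0.045 log2 and was not called (8.18 TPM in sgSETD1A cells and 7.87 TPM in sgEmpty cells).

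**Figure D3:**
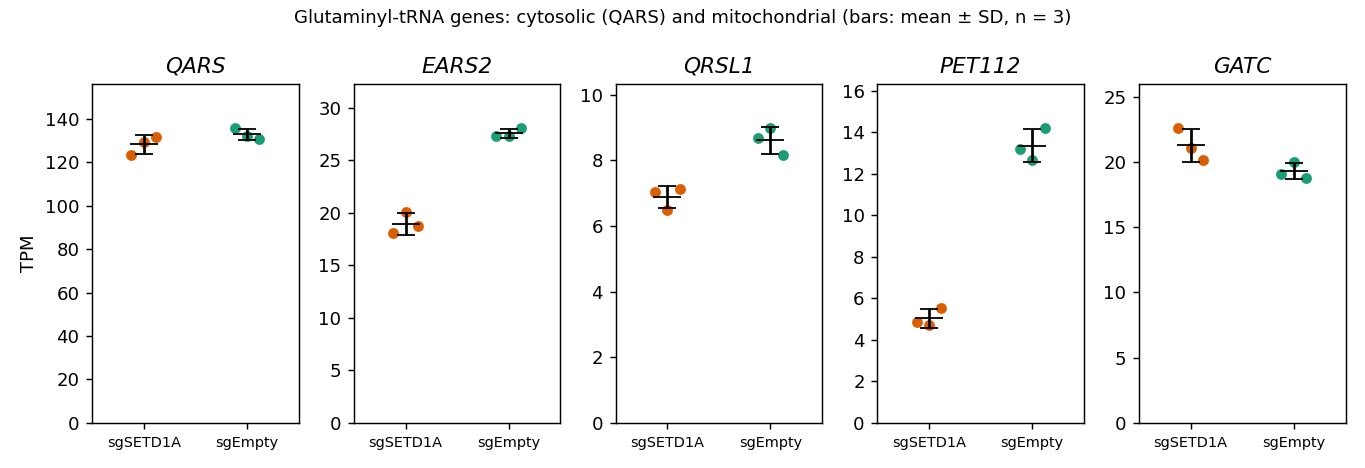
TPM of the cytosolic glutamine enzyme QARS and of the 4 genes of the mitochondrial glutamine route, with sgSETD1A libraries on the left and sgEmpty libraries on the right of each panel; points are libraries, bars are mean ± SD (n = 3), and y axes start at 0. EARS2, QRSL1 and PET112 are lower in all 3 sgSETD1A libraries, QARS overlaps and GATC lies slightly higher.

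For 17 pairs of a mitochondrial and a cytosolic gene for the same amino acid, the ratio of mitochondrial to cytosolic TPM was compared within libraries. The ratio was lower in every sgSETD1A library than in any sgEmpty library in 7 pairs, higher in 3, and overlapped in 7. Among single tested genes 17.3% lay below and 36.4% above without overlap, and the share among ratios of other gene pairs was not computed, so the counts are a description of these pairs only. The lower pairs were those for glutamate, proline, threonine, asparagine, histidine, isoleucine and leucine. TARS2 over TARS was 0.323, 0.353 and 0.353 in sgSETD1A libraries, against 0.516, 0.468 and 0.480 in sgEmpty libraries. EARS2 over EPRS was 0.128, 0.158 and 0.142 in sgSETD1A libraries, against 0.205, 0.206 and 0.215 in sgEmpty libraries. In both pairs the mitochondrial member alone was called. The highest difference was that of alanine, where AARS2 over AARS was 0.0346, 0.0373 and 0.0391 in sgSETD1A libraries, against 0.0208, 0.0210 and 0.0241 in sgEmpty libraries, a difference of 0.75 log2. RARS2 over RARS was 0.513, 0.487 and 0.514 in sgSETD1A libraries, against 0.351, 0.332 and 0.354 in sgEmpty libraries, a difference of 0.55 log2. In these the cytosolic gene was called lower and the mitochondrial gene higher, though the RARS2 call was lost after either rescaling. The other higher ratio was that of FARS2 to FARSB, in which FARSB alone was called, and FARS2 to FARSA overlapped. EPRS serves in 2 of the pairs and FARS2 in 2, so the pairs are not all separate. IARS2 stood above IARS in every library, the only pair with that order. For each non-overlapping ratio the exact two-sided permutation p was 0.1, the smallest this design allows, and 0.164 after Benjamini-Hochberg adjustment over the 18 ratios computed, so none could pass 0.05.

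**Figure D4:**
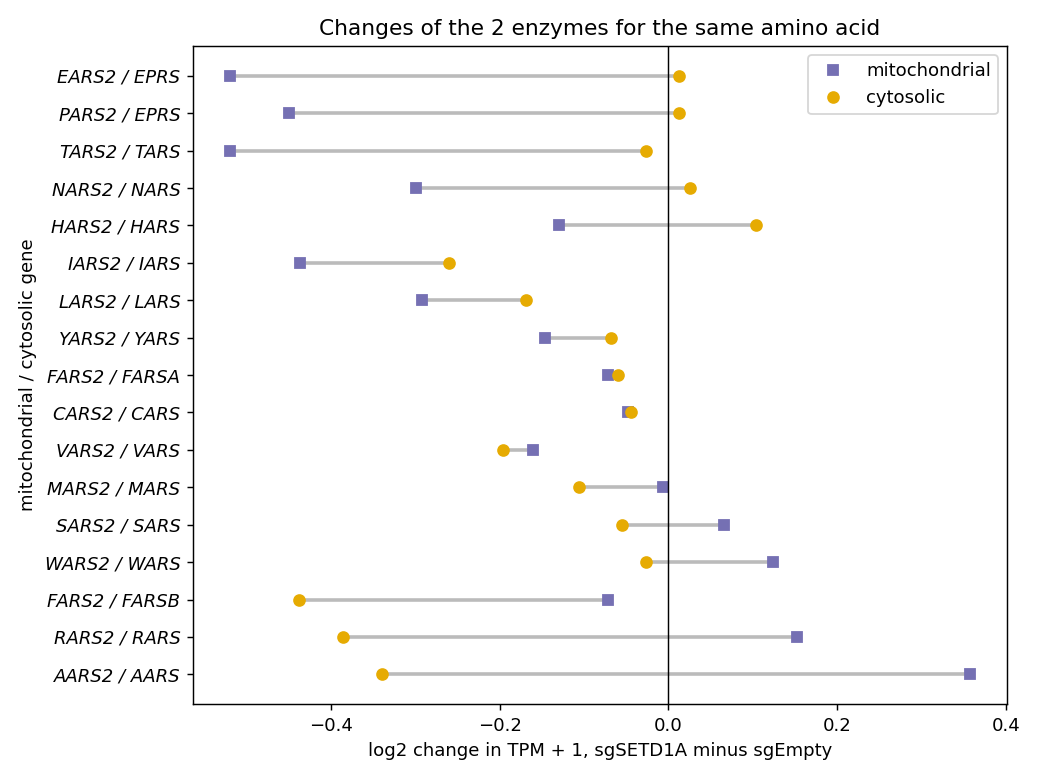
Change on the log2(TPM + 1) scale (x axis, sgSETD1A minus sgEmpty) of the mitochondrial gene (square) and the cytosolic gene (circle) for each of 17 pairs with the same amino acid, ordered by the difference. In the top rows, as EARS2 with EPRS and TARS2 with TARS, the square lies far left of a circle near 0; in the bottom rows, AARS2 with AARS and RARS2 with RARS, the order is turned round.

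HARS and HARS2 lie head to head: in RefSeq (GRCh38.p14) their starts are 85 bases apart on opposite strands. The bases between both starts are shown because they serve as the upstream region of both genes, written on the strand of HARS2, with matches to the ETS letters CCGGAAGT on either strand in capitals.
HARS to HARS2, chr5:140691371-140691454, plus strand: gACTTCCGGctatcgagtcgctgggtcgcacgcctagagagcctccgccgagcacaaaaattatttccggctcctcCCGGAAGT
On either side of this interval, HARS had a change of 0.10 log2 and HARS2 of -0.13 log2, and the ratio of HARS2 to HARS was 0.529, 0.533 and 0.496 in sgSETD1A libraries, against 0.585, 0.634 and 0.620 in sgEmpty libraries. These are related genes with similar coding sequence, so how reads were shared between them is uncertain.

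Promoter windows (250 bases before to 50 after the start, RefSeq, GRCh38.p14) were matched for 30 of the 36 genes, and DARS, LARS, VARS, YARS, AARS2 and VARS2 had no entry. Letters of the amino acid response element, TGATGNAA on either strand, occurred in 7 of the 30 (23.3%), AARS, CARS, IARS, MARS, NARS, TARS and YARS2, against 3.67% of 27305 promoters. They were in 3 of 13 genes called lower and in 4 of 17 others. In CARS, MARS, NARS and TARS the letters spanned or followed the start. The share of all promoters with these letters wholly upstream was not computed. ETS letters occurred in 7 of 30, against 4.44% of all promoters, and were in 3 of the 13 and 4 of the 17. HARS and HARS2 are both among these 7, and their windows share 184 bases, so they are not separate promoters. Median GC content of the windows was 62% for the 30 genes and 58.3% for all promoters. The YY1 letters AAGATGGC were in 6 of 30 (all promoters 3.03%), 1 of them called lower; the E-box CACGTG in 4 (all 7.43%), the NRF1 letters GCATGCGC in 2 (all 3.27%) and the ZNF143 and THAP11 letters CTACAATTC in 0 (all 0.333%). A match is a description of letters, not a bound site. The windows below show the amino acid response letters that lie wholly upstream, in capitals, for AARS and IARS, both called lower, and YARS2, which was not called.
AARS, chr16:70289666-70289713, minus strand: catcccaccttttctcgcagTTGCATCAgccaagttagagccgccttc
IARS, chr9:92293698-92293730, minus strand: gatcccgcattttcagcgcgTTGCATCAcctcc
YARS2, chr12:32756067-32756114, minus strand: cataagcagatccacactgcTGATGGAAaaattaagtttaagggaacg
The upstream bases of EARS2 and PARS2 are shown as examples of mitochondrial genes called lower that hold ETS letters. They do not stand for the class, since TARS2, IARS2, NARS2 and LARS2, also called lower, held none of the 6 motifs. Capitals mark the ETS letters in each and the E-box in EARS2.
EARS2, chr16:23557351-23557600, minus strand: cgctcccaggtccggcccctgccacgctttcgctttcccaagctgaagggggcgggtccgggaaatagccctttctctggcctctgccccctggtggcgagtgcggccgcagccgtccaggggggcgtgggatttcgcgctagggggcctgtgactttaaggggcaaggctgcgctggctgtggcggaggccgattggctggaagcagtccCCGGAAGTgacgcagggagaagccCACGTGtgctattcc
PARS2, chr1:54764524-54764773, minus strand: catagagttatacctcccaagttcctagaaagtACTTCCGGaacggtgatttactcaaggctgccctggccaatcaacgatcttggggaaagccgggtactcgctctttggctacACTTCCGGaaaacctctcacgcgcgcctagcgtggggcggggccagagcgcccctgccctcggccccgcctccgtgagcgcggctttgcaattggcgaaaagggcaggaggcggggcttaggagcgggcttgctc

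Of 13 tested genes of the amino acid response, ATF4 and its targets, 7 fell and 3 rose, where all tested genes had 13.5% lower and 28.0% higher. ATF4 had 324, 334 and 354 TPM in the sgSETD1A libraries, against 358, 365 and 382 TPM in the sgEmpty libraries, a change of -0.13 log2 (limma adjusted p = 0.0325), and its call did not hold in every alternative (adjusted p up to 0.116). The serine synthesis enzymes PSPH and PHGDH had changes of -0.70 and -0.35 log2. ASNS, the asparagine synthetase and a standard ATF4 target, had 120.4, 106 and 104 TPM in the sgSETD1A libraries, against 129, 135 and 134 TPM in the sgEmpty libraries, a change of -0.27 ± 0.056 (SE) log2 (limma adjusted p = 0.00429). The rises were those of DDIT3, at 0.36 log2, VLDLR at 0.32 and CEBPG at 0.15, the last not called after either rescaling. Of 9 amino acid transporters 4 fell and none rose, beside the same background of 13.5% lower and 28.0% higher. SLC7A5, which carries leucine and other large neutral amino acids, had 114, 116 and 108 TPM in the sgSETD1A libraries, against 189, 168 and 167 TPM in the sgEmpty libraries, a change of -0.63 ± 0.051 (SE) log2 (limma adjusted p = 3.25e-05), and its partner SLC3A2 averaged 168 ± 1.48 TPM in sgSETD1A cells and 194 ± 11.0 TPM in sgEmpty cells (SD, n = 3 each), or -0.21 log2. SLC7A1, a carrier of arginine and lysine, changed by -0.23 log2. The medians of both lists, -0.13 and -0.12 log2, lay below that of all tested genes, as did that of the synthetase genes at -0.088 log2.

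Factors that use the charged tRNA were read in the same fit. Of 10 mitochondrial translation factors 5 fell and 1 rose, with a median of -0.21 log2, while 13.5% of all tested genes were lower and 28.0% higher. MTIF2, the initiation factor that brings in the formylated initiator tRNA, had 26.3, 26.0 and 28.4 TPM in the sgSETD1A libraries, against 47.0, 47.1 and 48.4 TPM in the sgEmpty libraries, a change of -0.80 ± 0.049 (SE) log2 (limma adjusted p = 7.60e-06). MRRF, the ribosome recycling factor, had 29.1, 28.2 and 29.4 TPM in the sgSETD1A libraries, against 49.4, 49.4 and 51.4 TPM in the sgEmpty libraries, a change of -0.77 ± 0.043 (SE) log2 (limma adjusted p = 4.58e-06). GFM1, MTIF3 and TUFM, the mitochondrial EF-Tu that carries charged tRNA to the ribosome, changed by -0.33, -0.32 and -0.23 log2, and these 5 falls held in every alternative. MTRF1L, a release factor, rose by 0.21 log2 and was not called after either rescaling. Of 6 cytosolic elongation factors 4 fell and none rose (background 13.5% lower, 28.0% higher). The changes were -0.33 log2 for EEF1B2 and -0.25 for EEF1G, both of the exchange factor, -0.23 for the translocase EEF2 and -0.19 for EEF1A1. EEF1A1, the cytosolic carrier of charged tRNA, had 4930.3, 4649 and 4678 TPM in the sgSETD1A libraries, against 5362, 5491 and 5404 TPM in the sgEmpty libraries; after quantile normalization its change was 0.023 log2 and not called. EEF1D and EIF5A were not called (0.017 and 0.018 log2).

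**Figure D5:**
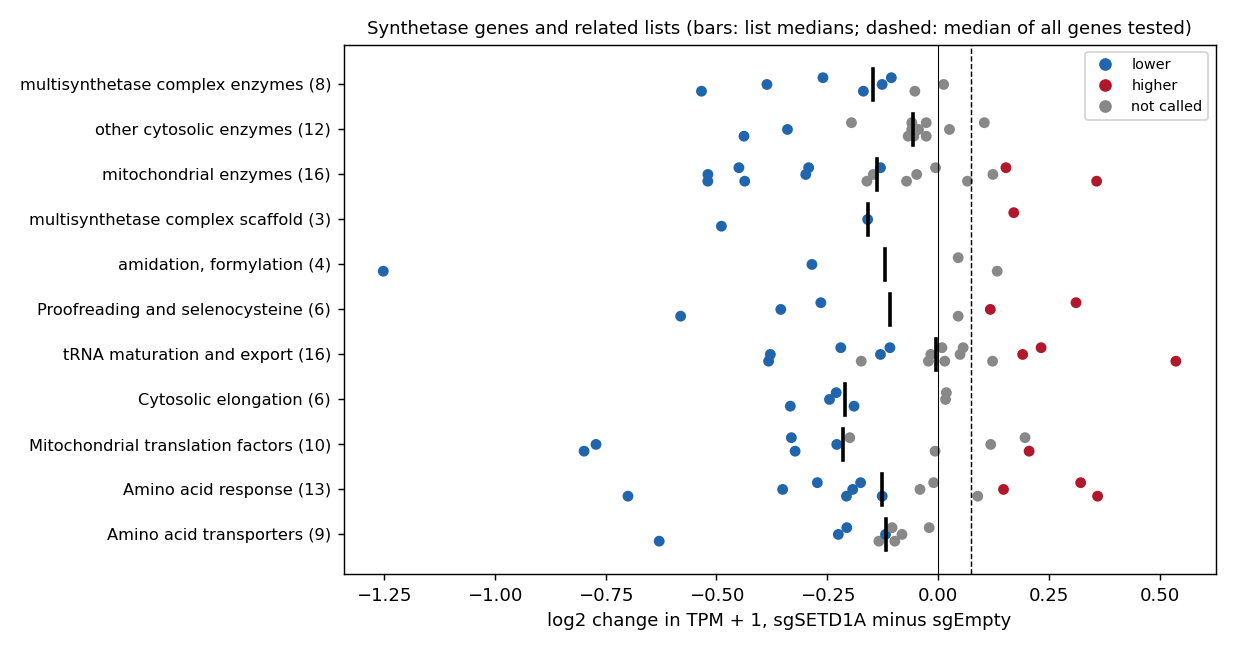
Change on the log2(TPM + 1) scale (x axis, sgSETD1A minus sgEmpty) of each tested gene in 3 groups of synthetases and 8 related lists, with the number of genes beside each name; points are genes coloured by call, black bars are medians and the dashed line is the median of all tested genes. Every list median lies left of the dashed line, and PET112 is the point farthest left.

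Of 16 tested genes of tRNA maturation and export 5 fell and 3 rose, against 13.5% lower, 28.0% higher and 41.5% called in either direction among all tested genes. The share called, 8 of 16, was near that background, and the median was -0.0040 log2. TSEN15, a subunit of the tRNA splicing endonuclease, averaged 22.1 ± 0.668 TPM in sgSETD1A cells and 29.0 ± 0.950 TPM in sgEmpty cells (SD, n = 3 each), with a change of -0.38 log2. LAGE3, of the complex that modifies adenosine next to the anticodon, changed by -0.22 log2. POP1, a protein of the tRNA processing enzyme RNase P, averaged 11.9 ± 0.522 TPM in sgSETD1A cells and 7.90 ± 0.108 TPM in sgEmpty cells (SD, n = 3 each), a change of 0.54 ± 0.062 (SE) log2 (limma adjusted p = 0.000207). OSGEP and RPP30 were higher by 0.23 and 0.19 log2, and neither was called after either rescaling. Of 6 genes of proofreading and selenocysteine, 3 fell and 2 rose (background 13.5% lower, 28.0% higher). SEPSECS, which makes selenocysteine on the tRNA that SARS has loaded, had 4.34, 4.35 and 4.49 TPM in the sgSETD1A libraries, against 6.65, 7.17 and 7.38 TPM in the sgEmpty libraries, a change of -0.58 ± 0.072 (SE) log2 (limma adjusted p = 0.000317). PSTK, the kinase of the step before it, was a low transcript at 3.14 TPM in sgSETD1A cells and 2.35 TPM in sgEmpty cells. Its rise of 0.31 log2 (limma adjusted p = 0.0393) was lost after either rescaling, with a replicate term and without the filter on low values. The call was also lost without any one library other than sgEmpty replicate 2. C14orf126, now DTD2, which removes wrongly attached amino acids from tRNAs, changed by -0.35 log2, PTRHD1 by -0.26 and DTD1 by 0.12. The calls of PTRHD1 and DTD1 did not hold in every alternative, and AARSD1, which clears wrongly loaded alanine tRNA, was not called at 0.045 log2. Over the 8 lists 42 of 67 tested genes were called, 32 lower and 10 higher (41.5% of all tested genes called, 13.5% lower and 28.0% higher), and 27 of them, 24 lower and 3 higher, kept their call in every alternative in which they could be tested.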

How the data were processed

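RNA of 6 KPL-1 libraries (3 sgSETD1A, 3 sgEmpty) was measured by poly(A) RNA sequencing with a stranded kit, per the labels' protocols. Listed without roles in the submitters' processing notes are RSEM 1.3.1, STAR 2.6.0c, bcl2fastq 2.20.0 and the build hg19; whether counting used strand is not stated there or in the labels. The deposited table holds TPM per gene symbol, a unit that sums to 1000000 per library and keeps no depth; its 1 unnamed row, the total, was left out. The 2 guide pool libraries of the series were not used here.

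All 11885 genes with a mean of at least 1 TPM were fitted with limma 3.58.1 (R 4.3.3, mean-variance trend) on log2(TPM + 1), a scale that understates the change of low genes, with groups as the only term and Benjamini-Hochberg adjustment over all genes tested. The fit was also run on simulated data with independent noise and few changed genes, which checks the code and not the calls made here. Changes are sgSETD1A minus sgEmpty, and genes called lower or higher had an adjusted p under 0.05. Ratios between genes were compared with exact permutation tests over libraries.

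The members, pairs, lists and motifs were chosen with earlier results of these data known. From each list, called genes were named up to 3 per direction by size, and all genes of lists of up to 6; ATF4, MTIF3 and TUFM were named beside that rule. Values of 2 list genes are not reported here. Of 19035 symbols, 16921 matched a current RefSeq name and 1903 an older one. Sequences are those of RefSeq, GRCh38.p14, and no coordinate was taken from hg19. Alternatives covered pseudocounts, filters, scaling, the variance trend, a replicate term and leaving out each library.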

Additional observations from a re-analysis of the deposited data

How the results depend on the processing

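Of 504 values of single synthetase genes under alternatives, 465 kept their call status, 20 lost the call and 19 gained one. Of 936 values of list genes, 840 kept it, 86 lost and 9 gained a call. A gene called in neither fit was counted as kept even where its sign changed, as for EPRS (-0.066 to 0.047 log2). No synthetase gene changed sign where either fit called it. Median-ratio rescaling called 15 cytosolic genes lower, and both rescalings called 1 mitochondrial gene higher. All genes called higher numbered 1766 with median-ratio rescaling and 2142 with quantile normalization, against 3327 with TPM as deposited, and list genes higher numbered 3 in either, against 10. The median of all tested genes was 0.073 log2 as deposited, -0.00014 with median-ratio rescaling and 0.021 with quantile normalization, and the cytosolic and mitochondrial medians were below it in each. EEF1A1 reversed to 0.023 log2 with quantile normalization (adjusted p = 0.417). With 1 library left out, 0 to 1 cytosolic genes, 1 to 2 mitochondrial genes and 4 to 9 list genes were higher. The cause of these shifts was not tested.

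Whether replicate numbers pair the libraries could not be settled with 3 libraries per group. Deviations of same-numbered libraries correlated at 0.0845, -0.104 and 0.169, and 3 of 6 libraries correlated best with their own number. With a replicate block 7 cytosolic genes were lower and 0 higher, 6 mitochondrial genes were lower and 2 higher, 31 list genes were lower and 7 higher, and over all genes 1539 were lower and 3103 higher. Depth is unknown, so read counts could not inform the precision of low transcripts such as AARS2 and PSTK. That precision rests on the spread between libraries, moderated in the fit by the mean-variance trend over all tested genes.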
